A study of Mus musculus with 8 samples.

Results

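The genes described here are the CDK inhibitors Cdkn1a, Cdkn1b, Cdkn1c, Cdkn2b, Cdkn2c and Cdkn2d and the antiproliferative genes Btg1, Btg2, Btg3 and Tob1, 10 genes chosen by name. The choice was made with earlier results of these data known. A gene was taken as measured where the array's annotation gives a probe set to its symbol alone. That held for 9 of the 10, each with a single probe set, out of 19505 named genes. Btg3 was not analysed here. The cells were hematopoietic stem cells from the bone marrow of mice 6 to 10 weeks old, sorted as lineage-negative, c-Kit+, Sca-1+, CD150+ and CD48- cells; the strain is not given in the labels. All of them were kept in Myelocult medium with stem cell factor at 100 ng/ml and exposed for 16 h either to eltrombopag at 10 µg/ml or to sterile water as the vehicle. Eltrombopag, taken by mouth to raise platelet counts, activates the thrombopoietin receptor in humans and also binds iron. Each group had 4 Affymetrix arrays, numbered 1 to 4 in the titles and called biological replicates there. Whether separate mice lay behind each array is not stated, so p-values cover only the spread between these samples.

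CDK inhibitors hold cells in the G1 phase. The CIP/KIP proteins, encoded by Cdkn1a, Cdkn1b and Cdkn1c, bind complexes of cyclins with their kinases, and the INK4 proteins, encoded by Cdkn2b, Cdkn2c and Cdkn2d, bind the kinases that work with D-type cyclins. BTG and TOB proteins recruit the CCR4-NOT complex, which shortens the poly(A) tails of messenger RNAs, and they slow proliferation when present in excess. In blood stem cells several of these genes are known for a part in dormancy or in the response to DNA damage, and Cdkn1a and Btg2 are both classical targets of p53.

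Values are log2 expression as deposited, so a difference of 1 is a doubling, and a difference always means eltrombopag minus vehicle. The arrays had been brought to a common distribution before deposit. Across the arrays the mean lower quartile of all probe sets was 4.96 and the mean median 6.68, and 0 of the 9 genes had a mean below that lower quartile. Of 12 stem cell markers 10 were measured, among them Kit, the receptor for stem cell factor, and Slamf1, the gene of CD150. Of the 10, 0 had a mean below the lower quartile. The count was 0 of 5 for measured erythroid markers, 1 of 5 megakaryocyte markers, 1 of 8 neutrophil and monocyte markers, 2 of 7 B, T and NK cell markers and 4 of 5 mast cell and basophil markers. Ly6a, the gene of Sca-1, was not analysed here. With 4 arrays a group, their number limits the precision.

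No CDK inhibitor, BTG or TOB gene passed between eltrombopag and vehicle once all genes were adjusted for. limma, with Benjamini-Hochberg adjustment over all genes, called 0 of the 9 and 0% of all genes. At an unadjusted p under 0.05 in limma stood 1 of the 9, Btg2, against 3.33% of all genes. Btg2 was also the only one whose groups did not overlap, which held for 2.12% of all genes. Differences ran from -0.58 for Btg2 to 0.30 for Cdkn1c, with 5 genes higher and 4 lower. The median absolute difference was 0.13 over the 9 genes and 0.083 over all genes. The 95% interval left out a 2-fold change, up or down, for all 9. It left out a 1.5-fold change for 5 of them, Cdkn2b, Cdkn2c, Cdkn2d, Btg1 and Tob1, as it did for 88% of all genes. With the array number as a replicate block it did so for 6 of the 9, these 5 and Cdkn1a (-0.10 to 0.33), and for 90.8% of all genes. In lysates of many cells, fewer cells with a transcript and less of it per cell cannot be told apart.

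**Figure D1:**
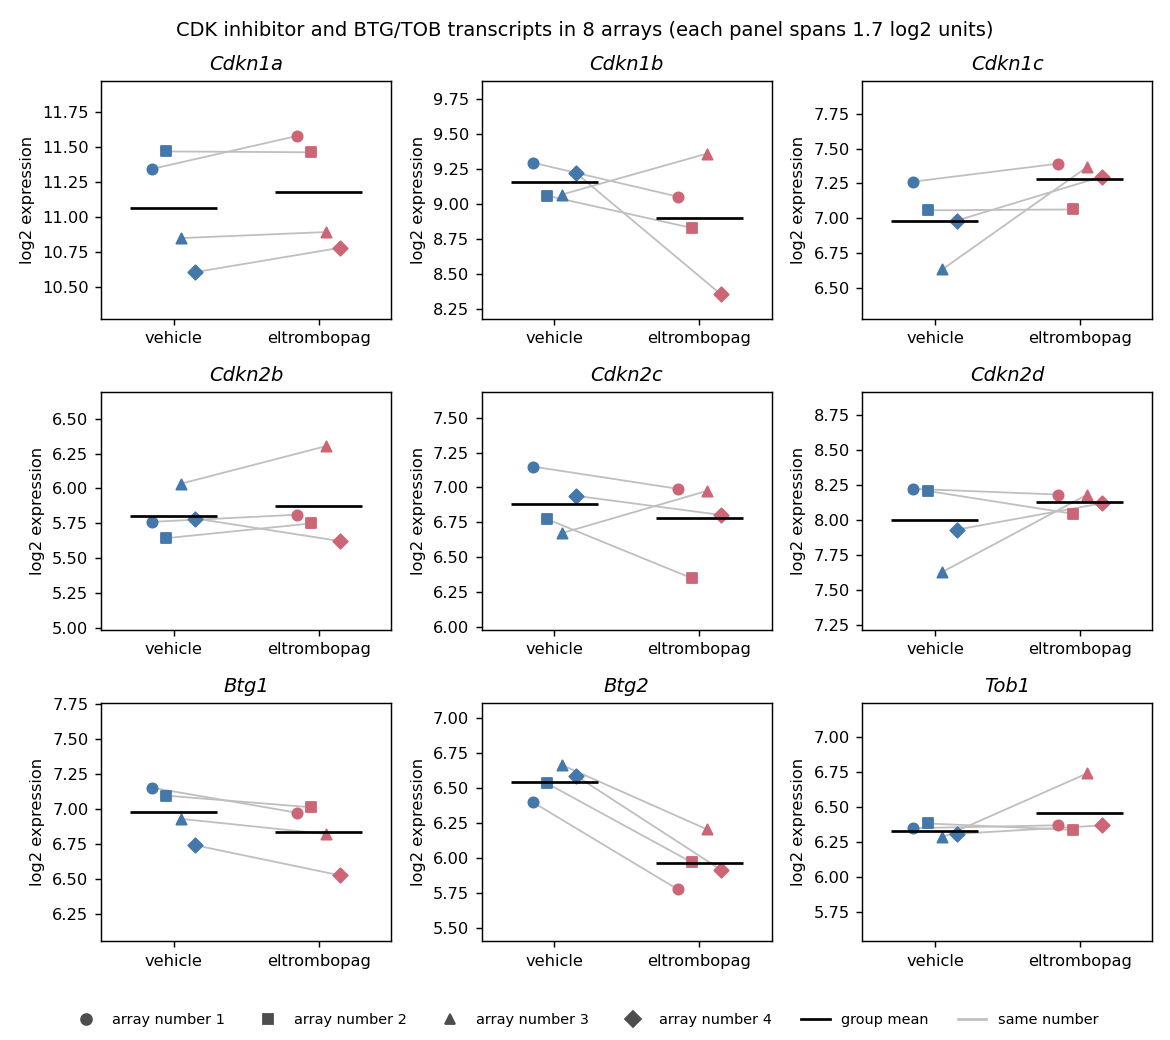
Log2 expression of the 9 measured genes in each array, with vehicle arrays in blue and eltrombopag arrays in red, a marker shape for each array number, grey lines joining arrays of the same number and black bars for group means. Btg2 is the only panel in which the groups do not overlap, and the Cdkn1a panel shows arrays 1 and 2 above arrays 3 and 4 in both groups.

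Among the BTG and TOB genes, Btg2 had the lowest difference. Btg2 is an immediate early and p53-induced gene whose protein joins CCR4-NOT to messenger RNAs. With vehicle its log2 expression was 6.40, 6.53, 6.67 and 6.59 in arrays 1 to 4. With eltrombopag it was 5.78, 5.97, 6.21 and 5.91. Every eltrombopag array thus lay below every vehicle array, and array 3 was the highest in both groups. The means were 6.55 ± 0.11 (SD, n = 4) and 5.97 ± 0.18 (SD, n = 4) in that order, a difference of -0.58 (SE 0.11, 95% interval -0.83 to -0.33), which on the linear scale is 66.9% of the vehicle level. Array by array of the same number the difference was -0.62, -0.57, -0.46 and -0.67. Its unadjusted p in limma, 0.000391, was number 3 in the order of all 19505 genes, and its adjusted p was 0.99978. The exact two-sided permutation test gave 0.0286, the smallest p that 4 against 4 arrays allow. As the groups did not overlap, leaving out arrays could change the size of the difference but not its sign. Leaving out 1 array at a time gave differences from -0.66 to -0.52. The difference was -0.59 in arrays 1 and 2 alone and -0.57 in arrays 3 and 4 alone. Btg2 lay below the median gene, at a mean of 6.26 over all arrays.

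Btg1 encodes the closest relative of the BTG2 protein and is abundant in resting blood cells. Its log2 expression was 7.15, 7.09, 6.93 and 6.74 with vehicle and 6.97, 7.01, 6.82 and 6.52 with eltrombopag. The eltrombopag array was the lower one at each of the 4 numbers, by 0.083 to 0.22, while the groups overlapped. The same direction at all 4 numbers was found in 12.6% of all genes. The difference of -0.15 (SE 0.14, 95% interval -0.45 to 0.15) did not pass (adjusted p 0.99978 in limma). It was -0.044 without eltrombopag array 4, -0.089 without vehicle array 1 and -0.23 without vehicle array 4.

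Tob1, whose protein binds CCR4-NOT and also SMAD proteins, had the narrowest spread with vehicle, at 6.35, 6.38, 6.28 and 6.31. With eltrombopag it was 6.37, 6.34, 6.74 and 6.37. Array 3 stood alone above the other 3 eltrombopag arrays, which lay within the vehicle range. The difference was 0.12 (SE 0.11) with that array and 0.028 without it. Neither value passed.

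The promoters of Btg2 and Btg1 are shown because these relatives differed in whether their groups overlapped. Each run is the 250 bases before the start of transcription, 5′ to 3′ on the gene's strand, from RefSeq on GRCm38.p6. Capitals mark matches, on either strand, to the cAMP response element TGACGTCA, the CCAAT box CCAAT and the TATA box TATAAA.
Btg2, chr1:134079156-134079405, minus strand: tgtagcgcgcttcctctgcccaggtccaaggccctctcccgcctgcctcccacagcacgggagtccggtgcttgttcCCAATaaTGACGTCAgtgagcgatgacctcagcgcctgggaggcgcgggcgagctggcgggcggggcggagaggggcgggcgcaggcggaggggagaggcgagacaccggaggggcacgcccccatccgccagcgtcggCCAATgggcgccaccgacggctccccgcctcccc
Btg1, chr10:96616751-96617000, plus strand: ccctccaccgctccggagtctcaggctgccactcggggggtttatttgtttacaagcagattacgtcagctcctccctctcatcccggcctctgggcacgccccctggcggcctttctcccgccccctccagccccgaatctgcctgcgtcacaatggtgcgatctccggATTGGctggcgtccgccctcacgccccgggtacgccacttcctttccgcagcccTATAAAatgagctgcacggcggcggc
The Btg2 window held TGACGTCA 166 to 159 bases before the start and CCAAT at 2 places, with no TATAAA. The Btg1 window held TATAAA 26 to 21 bases before the start and CCAAT at 1 place, with no TGACGTCA. TGACGTCA was found in 1.55% of the 32851 windows of this length in the table, CCAAT in 33.8% and TATAAA in 12.4%. The 12 windows of these genes cover 9 of the 10, with Btg3 among them and Cdkn1c without a window. Of the 12, 2 held TGACGTCA, those of Btg2 and Cdkn2b. The GC box GGGCGG occurred in 8 of the 12 and in 32.7% of all windows. These matches describe the letters alone.

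Of the CIP/KIP genes, Cdkn1c had the highest difference and Cdkn1b the lowest. Cdkn1c encodes p57, an imprinted inhibitor known for keeping blood stem cells quiescent. Its log2 expression was 7.26, 7.06, 6.63 and 6.98 with vehicle and 7.39, 7.06, 7.37 and 7.30 with eltrombopag. The groups overlapped, because eltrombopag array 2 stayed among the vehicle values. The eltrombopag array was the higher one at each of the 4 numbers, by 0.0062 at number 2 and by 0.73 at number 3. The difference was 0.30 (SE 0.14, 95% interval -0.014 to 0.60), with an unadjusted p of 0.0591 and an adjusted p of 0.99978 in limma and an exact permutation p of 0.0571. It was 0.067 in arrays 1 and 2 alone and 0.52 in arrays 3 and 4 alone. Without vehicle array 3 it was 0.18.

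Cdkn1b encodes p27, which accumulates in cells that leave the cycle. Its log2 expression was 9.30, 9.06, 9.07 and 9.22 with vehicle and 9.05, 8.83, 9.36 and 8.35 with eltrombopag. The eltrombopag arrays spread over 1.01 log2 units and enclosed the whole vehicle range, which was 0.24 wide. Array 3 was the highest and array 4 the lowest of the group. The difference was -0.26 (SE 0.18, 95% interval -0.67 to 0.15; adjusted p 0.99978 in limma). It was -0.080 without eltrombopag array 4 and -0.42 without eltrombopag array 3.

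Cdkn1a encodes p21, the inhibitor that p53 induces after DNA damage. Its log2 expression was 11.34, 11.47, 10.85 and 10.61 with vehicle and 11.58, 11.46, 10.89 and 10.78 with eltrombopag. In both groups arrays 1 and 2 were high and arrays 3 and 4 low, and the treatments overlapped. The difference between treatments was 0.11 (SE 0.23, 95% interval -0.40 to 0.62; adjusted p 0.99978 in limma). Between arrays of the same number it was 0.24, -0.0060, 0.043 and 0.17.

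Differences of the INK4 genes lay between -0.10 and 0.13. Cdkn2d, which encodes p19INK4D, had 8.22, 8.21, 7.63 and 7.93 with vehicle and 8.18, 8.04, 8.18 and 8.12 with eltrombopag. The eltrombopag array was lower at numbers 1 and 2 and higher at numbers 3 and 4. The difference of 0.13 (SE 0.14) turned to -0.10 in arrays 1 and 2 alone and was 0.37 in arrays 3 and 4 alone. Cdkn2c encodes p18INK4C, which limits the self-renewal of blood stem cells. It had 7.15, 6.77, 6.67 and 6.94 with vehicle and 6.99, 6.35, 6.97 and 6.80 with eltrombopag, a difference of -0.10 (SE 0.16). Its groups overlapped, and number 3 was the only one at which the eltrombopag array was the higher. Cdkn2b encodes p15INK4B, an inhibitor induced by TGF-beta. It had 5.76, 5.64, 6.03 and 5.79 with vehicle and 5.81, 5.75, 6.30 and 5.62 with eltrombopag, a difference of 0.066 (SE 0.15). Array 3 was the highest in both groups. None of these 3 genes passed (adjusted p 0.99978 for each in limma).

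**Figure D2:**
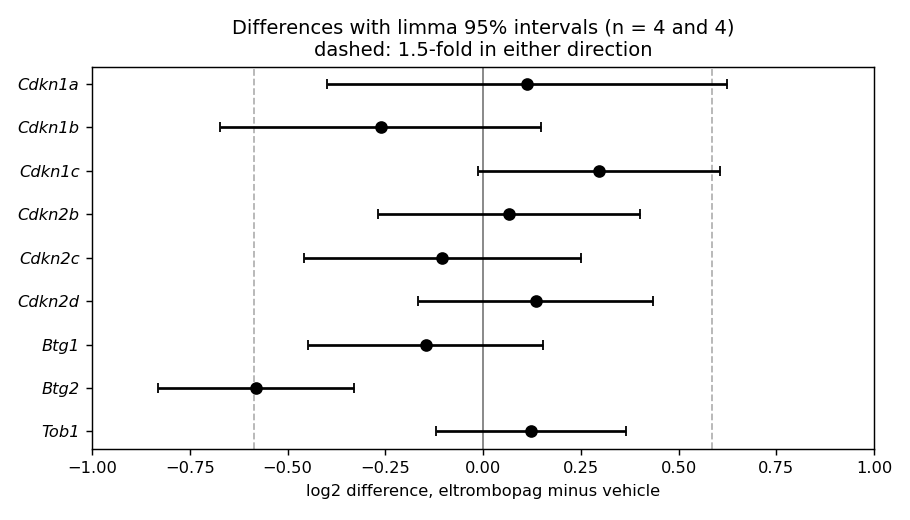
Log2 difference between eltrombopag and vehicle for the 9 measured genes (points) with 95% intervals from limma (bars), 4 arrays in each group; dashed lines mark a 1.5-fold change. Only the Btg2 interval, -0.83 to -0.33, leaves out 0, before any adjustment for the number of genes tested.

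The arrays numbered 3 set the pair differences of several of these genes apart. At number 3 the eltrombopag array exceeded the vehicle array by 0.73 for Cdkn1c, 0.55 for Cdkn2d, 0.46 for Tob1, 0.30 for Cdkn2c, 0.29 for Cdkn1b and 0.27 for Cdkn2b. The difference there was 0.043 for Cdkn1a, -0.11 for Btg1 and -0.46 for Btg2. Vehicle array 3 was the lowest vehicle array for Cdkn1c, Cdkn2d, Cdkn2c and Tob1, and eltrombopag array 3 the highest eltrombopag array for Cdkn1b, Cdkn2b, Btg2 and Tob1. At number 4 the differences of the first 6 genes were 0.31, 0.19, 0.060, -0.14, -0.87 and -0.16. The mean over the 6 CDK inhibitors was 7.81 in vehicle array 3, the lowest of the 4 vehicle arrays, and 8.18 in eltrombopag array 3, close to the 8.17 of both arrays numbered 1.

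Array number went with a wider spread than treatment for Cdkn1a. The mean of arrays 3 and 4 of both groups was lower by 0.68 than that of arrays 1 and 2, at 10.78 against 11.46, and the values did not overlap, from 10.61 to 10.89 against 11.34 to 11.58. Btg1 was the only further gene of the 9 whose values did not overlap, at 6.52 to 6.93 against 6.97 to 7.15. This split of the numbers was known from earlier results of these data, and 7.24% of all genes do not overlap across it. In a limma fit with group and number, the F test of the 4 numbers called 0 of the 9 genes and 0.21% of all genes. Cdkn1a had an unadjusted p of 0.000857 and an adjusted p of 0.148 in it. Btg2 had an adjusted p of 0.593. With trended and robust variance estimates limma called 1 of the 9, Cdkn1a, and 1.02% of all genes. The arrays of one number may share animals, so this is no test over independent samples.

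**Figure D3:**
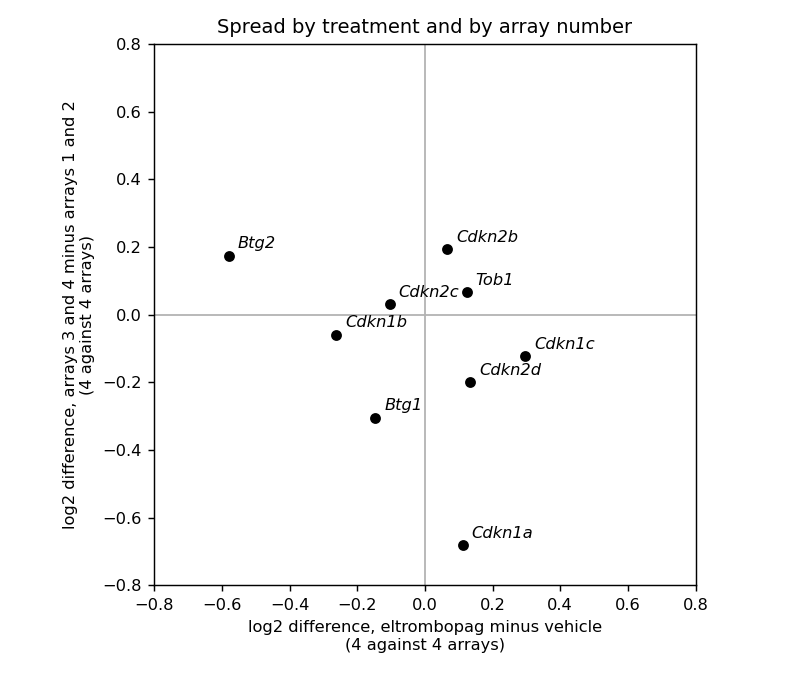
Each point is a gene, with its log2 difference between eltrombopag and vehicle on the horizontal axis and its log2 difference between arrays 3 and 4 and arrays 1 and 2 on the vertical axis. Btg2 lies at -0.58 and 0.17, and Cdkn1a at 0.11 and -0.68.

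Other genes were set apart along the same numbers as Cdkn1a. Of 21 measured p53 target genes, 4 did not overlap between arrays 1 and 2 and arrays 3 and 4, against 7.24% of all genes. Sesn2, a stress sensor upstream of mTORC1, had 7.62 to 8.06 in arrays 1 and 2 and 5.97 to 6.56 in arrays 3 and 4. Perp (7.43 to 8.30 against 6.90 to 7.12) and Phlda3 (5.99 to 6.21 against 4.95 to 5.80) were lower in arrays 3 and 4 too. Plk3 was higher there, at 9.34 to 9.48 against 8.70 to 9.14 in arrays 1 and 2. Mdm2, the p53 antagonist, overlapped, and its mean was higher by 0.018 in arrays 3 and 4 than in arrays 1 and 2. In other lists, 5 of 12 G1 cyclins and their kinases, 4 of 20 immediate early genes and 3 of 10 stem cell markers did not overlap. The count was 2 of 13 for RB and E2F proteins and 2 of 8 for ubiquitin ligase and partner genes listed around CDK inhibitor degradation. It was 1 of 14 for CCR4-NOT and BTG partners and 1 of 10 for TGF-beta and FOXO factors. Among 15 measured proliferation markers 7 did not overlap. The mitotic kinase Plk1 was at 9.62 to 9.92 in arrays 1 and 2 and 8.74 to 9.13 in arrays 3 and 4, while the replication gene Mcm4 was at 8.95 to 9.15 and 9.29 to 9.65. Among the lists of markers of other cells, the mean of 1, the erythroid list, did not overlap between these arrays. The mean over 5 measured erythroid markers was 6.80 to 7.05 in arrays 1 and 2 and 7.19 to 7.62 in arrays 3 and 4, and 4 of the 5 were higher in arrays 3 and 4, with Alas2 at 7.51 to 8.03 against 8.85 to 9.30. Stem cell markers were higher in arrays 3 and 4 in 8 of 10 cases. So were 5 of 5 megakaryocyte markers and 6 of 8 neutrophil and monocyte markers. For B, T and NK cell markers it was 3 of 7, and for mast cell and basophil markers 3 of 5. Counted by gene, 1 of 5 erythroid, 1 of 5 megakaryocyte and 1 of 8 neutrophil and monocyte markers did not overlap. The part of these genes and markers in the Cdkn1a values was not tested.

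The promoter of Cdkn1a is shown for its 2 listed starts, because this gene separated the arrays by number. Genes of several lists were set apart along the same numbers, among them 7 of 15 proliferation markers and 5 of 12 G1 cyclins and their kinases. For p53 targets it was 4 of 21, with Plk3 in the opposite direction to Cdkn1a. Of these 21, 10 had a higher mean in arrays 3 and 4. The runs are the 250 bases before each start, read as above. Capitals mark paired cores of p53 half-sites, the letters CATG repeated after a gap of 6 bases, a pattern chosen after the sequence was seen.
Cdkn1a upstream start, chr17:29090729-29090978, plus strand: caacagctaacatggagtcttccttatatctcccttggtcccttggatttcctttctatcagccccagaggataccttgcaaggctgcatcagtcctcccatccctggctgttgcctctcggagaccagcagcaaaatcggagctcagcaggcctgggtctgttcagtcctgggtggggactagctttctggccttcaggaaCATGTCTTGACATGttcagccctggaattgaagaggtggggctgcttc
Cdkn1a downstream start, chr17:29093519-29093768, plus strand: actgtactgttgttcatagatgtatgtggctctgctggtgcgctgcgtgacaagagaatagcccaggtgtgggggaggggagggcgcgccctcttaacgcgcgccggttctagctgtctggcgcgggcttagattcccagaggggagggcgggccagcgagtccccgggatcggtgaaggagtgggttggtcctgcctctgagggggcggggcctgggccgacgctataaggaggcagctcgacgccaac
The paired cores lay 48 to 35 bases before the upstream start and were in no other of the 12 windows. Of all windows, 0.49% held them. As the pattern was chosen from this window, finding it there is no test. These matches describe the letters alone, and a part of p53 in the Cdkn1a values was not tested. The full p53 consensus of adjoining half-sites was in 0 of the 12 windows and in 3 of all 32851. The window before the downstream start held the GC box GGGCGG at 2 places.

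The remaining genes of these families did not pass either. Cdkn2a, the INK4A and ARF gene, had a vehicle mean of 3.83 ± 0.28 (SD, n = 4) and an eltrombopag mean of 3.94 ± 0.12 (SD, n = 4), both below the arrays' lower quartile. Its difference was 0.11 (SE 0.14). Tob2 differed by -0.081 (SE 0.10), Btg4 by 0.11 (SE 0.22) and the phosphatase gene Cdkn3 by 0.025 (SE 0.20). Their groups overlapped, and limma gave each an adjusted p of 0.99978.

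The genes around the pathway were read from lists of its partners, targets and regulators, and 0 genes passed in any list in either direction. From each list the 3 genes with the smallest p were taken, and those named here did not pass (adjusted p 0.99978 for each in limma). For G1 cyclins and their kinases, 6 of 12 measured genes were higher, with a median difference of -0.00037 against 0.0071 over all genes. Ccne2, a cyclin that CIP/KIP proteins restrain, was lower in all 4 eltrombopag arrays than in any vehicle array, at 8.57 ± 0.099 (SD, n = 4) against 8.79 ± 0.079 (SD, n = 4). Its difference was -0.22 (SE 0.094). Cdc25a, the phosphatase that activates CDK complexes, differed by -0.22 (SE 0.12). Ccnh went the other way, by 0.16 (SE 0.093), and was higher with eltrombopag at each of the 4 numbers, with overlapping groups.

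For RB and E2F proteins, which carry the decision to enter S phase, 6 of 13 were higher (median -0.00079). E2f2 had the highest difference, 0.56 (SE 0.30), from 7.11 and 7.37 in eltrombopag arrays 3 and 4 against 5.88 and 6.19 in eltrombopag arrays 1 and 2, and it was -0.0019 in arrays 1 and 2 alone. E2f4 differed by 0.077 and Tfdp1 by -0.071. For the CCR4-NOT complex and BTG partners, 7 of 14 were higher (median 0.0029), and their lowest difference was -0.13 for the deadenylase Cnot6l. Prmt1 differed by 0.074 and Cnot10 by -0.076. For ubiquitin ligase and partner genes listed around the degradation of CDK inhibitors, 4 of 8 were higher (median -0.031). The difference was 0.19 for the ubiquitin ligase subunit Fbxw7, -0.14 for Ddb1 and -0.13 for Cul1.

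For p53 targets, 13 of 21 were higher (median 0.030). Eda2r, a TNF receptor family gene, had the highest difference, 0.55 (SE 0.23), or 0.35 without eltrombopag array 1, with overlapping groups, while Ccng1 (-0.22) and Mdm2 (-0.19) were lower. For immediate early genes, a class to which Btg2 belongs, 11 of 20 were higher (median 0.027). Atf3, a stress-induced transcription factor, was higher in every eltrombopag array than in any vehicle array, at 4.91 ± 0.12 (SD, n = 4) against 4.48 ± 0.32 (SD, n = 4), both below the arrays' lower quartile. Its difference was 0.43 (SE 0.15), or 0.28 without vehicle array 4. Fos differed by 0.20 (SE 0.16), or 0.037 without eltrombopag array 1, and Klf2 by 0.18 (SE 0.13). For TGF-beta and FOXO factors, 2 of 10 were higher (median -0.020), with -0.15 for Smad7, -0.13 for Foxo3 and -0.11 for Foxo1. Without eltrombopag array 2 the difference of Smad7 was -0.0033. Proliferation markers were higher in 4 of 15 cases (median -0.040), with 0.29 (SE 0.20) for the survivin gene Birc5 and -0.20 (SE 0.15) for Top2a. Bub1 differed by -0.25 (SE 0.31). Without eltrombopag array 1 the difference of Birc5 was 0.084, and without eltrombopag array 2 that of Top2a was -0.089.

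**Figure D4:**
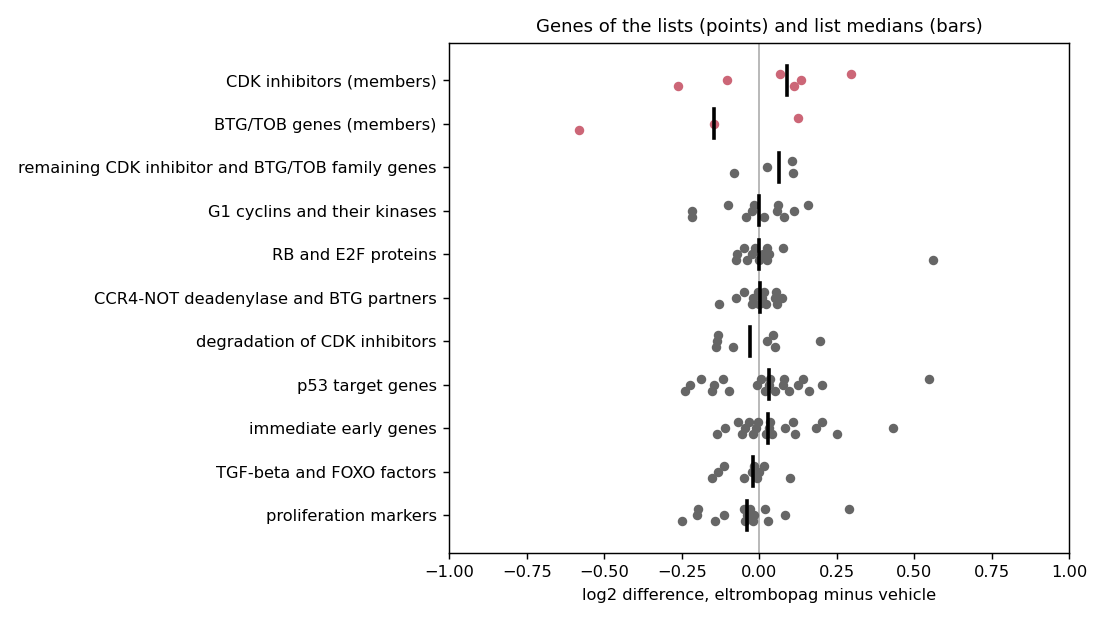
Log2 difference between eltrombopag and vehicle for every measured gene (points) of each pathway list, with the lists of cell type markers left out, and list medians as black bars and the CDK inhibitor and BTG/TOB genes in red. Btg2, at -0.58, is the lowest point of all lists shown, and the medians of the other lists drawn lie between -0.040 and 0.065.

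Markers of cells other than stem cells did not pass either. With vehicle and eltrombopag, the mean over the measured markers was 6.82 to 7.36 and 6.80 to 7.62 for erythroid cells, 7.11 to 7.53 and 7.34 to 7.57 for megakaryocytes, 6.56 to 7.06 and 6.63 to 7.14 for neutrophils and monocytes, and 5.55 to 5.66 and 5.51 to 5.70 for B, T and NK cells. For mast cells and basophils it was 4.73 to 4.87 and 4.77 to 4.94. With eltrombopag 5 of 5 megakaryocyte markers were higher (median difference 0.13), as were 5 of 5 mast cell and basophil markers (0.058), 4 of 5 erythroid markers (0.14), 4 of 8 neutrophil and monocyte markers (-0.0096) and 3 of 7 B, T and NK cell markers (-0.073). The ranges of the means overlapped in each list. The part of these markers in the Btg2 values was not tested.

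Likeness of pattern was measured as the root mean square difference between log2 profiles over the 8 arrays, each centred on its own mean. It was taken for the CDK inhibitor and for the BTG or TOB gene with the largest SD over the arrays, Cdkn1a (0.38) and Btg2 (0.34). The 5 genes most like Cdkn1a were Grb10 (0.079), Smyd3 (0.098), Acy1 (0.098), Eps8 (0.10) and Rara (0.11), where the median over all genes was 0.39. The 5 most like Btg2 were Eomes (0.13), Lin7c (0.13), Fyttd1 (0.13), Cpne3 (0.14) and Tagln (0.14), where the median was 0.36. The likeness to Btg2 rests on the same 8 arrays as its difference, and these 5 genes differed by -0.60 to -0.35.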

How the data were processed

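Sorted stem cells of both groups were profiled on Affymetrix arrays after amplification of about 10 ng of RNA with a 3′ kit, per the labels' protocols. The deposited values are log2 expression, 1 per probe set and array, and per the submitters' processing notes RMA, oligo and limma were used, without versions. RMA sets arrays to a common distribution, so differences in total RNA are lost. No genome build for the probe sets is named in the labels. Of 22206 probe sets, 19572 had 1 gene symbol, 0 had several and 2634 none; where a gene had more than 1 (55 genes), the highest-mean probe set was used. No pair of arrays shared a value (0 equal values, compared unrounded).

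limma 3.58.1 in R 4.3.3 was fitted on all 19505 genes with group as the only term, two-sided. Benjamini-Hochberg adjustment ran over all genes, with calls at adjusted p under 0.05. Its code was tested on simulated data with 200 changed genes. At a log2 change of 0.5 it called 0 of these, so changes of that size can go uncalled. At a change of 1 it called 189 of them and 7 unchanged genes. The members and the 17 lists (166 of 180 entries measured, 1 through a synonym) were chosen with earlier results of these data known. Named genes were all members, the 4 remaining family genes, and the 3 with the smallest p in each pathway list. Likeness took 5 genes for each of the members with the largest SD.

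Arrays of the same number deviated together from their group means (r across probe sets 0.241, 0.294, 0.192 and 0.142 for numbers 1 to 4), all over 0.1, so the number could serve as a pairing, on the evidence of the values and not of a label. Vehicle array 4 had a higher r, 0.171, with an eltrombopag array of another number, and vehicle array 3 reached 0.168. The main fit carries no term for it. The alternatives were the replicate block, a filter on dim genes, 2 other normalizations, array weights, other variance settings, other probe sets, leaving out arrays, and splits by number.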

Additional observations from a re-analysis of the deposited data

Results flagged for a closer look

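A search for an array far from its 3 group partners covered 74 groups of 4, the vehicle and the eltrombopag values of 37 genes. Chance flags about 1 group in 20, or 3.7 here, and 4 were found. Among the CDK inhibitors, BTG and TOB genes it was Tob1, where eltrombopag array 3 was at 6.74 and its partners at 6.34 to 6.37, a gap of 0.919 of the group's range. Birc5 was at 9.61 in eltrombopag array 1 against 8.73 to 8.84 (0.868). Fos was at 5.79 in vehicle array 3 against 5.51 to 5.55 (0.855). Foxo3 was at 8.997 in eltrombopag array 4 against 9.28 to 9.33 (0.855).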

How the results depend on the processing

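Under all 20 alternatives, limma called 0 genes and 0 of the members, including the replicate block by array number, where the Btg2 difference was -0.58 (SE 0.089, adjusted p 0.984); the block changed no call. The filter on dim genes kept 6 of the 9 members and did not test Btg2, Cdkn2b and Tob1. Among the members, 4 had the same sign wherever they were tested (Btg2, Btg1, Cdkn1b and Cdkn1c), and 5 did not. The replicate block, the term for the split by number and the other variance settings leave a member's difference unchanged. So do the other probe sets and the filter on dim genes, and the sign could not turn under any of these. In arrays 1 and 2 alone the sign turned for Cdkn2d (-0.10), Tob1 (-0.013), Cdkn2a (-0.078), E2f2 (-0.0019), Mdm2 (0.084) and Bub1 (0.22). In arrays 3 and 4 alone it turned for Cdkn2c (0.083), Cdkn3 (-0.23), Prmt1 (-0.041), Cnot10 (0.097), Fbxw7 (-0.028) and Top2a (0.062). Without both arrays numbered 3 it turned for Cdkn2b (-0.0019), Cdkn2d (-0.0052), Cdkn3 (-0.054) and Bub1 (0.036), and with array weights for Cdkn3 (-0.0064). The cause was not tested. With single arrays removed in turn, the log2 difference of Cdkn1a ran from -0.042 to 0.25, that of Cdkn2b from -0.078 to 0.15, Cdkn2c from -0.17 to 0.039, Cdkn2a from -0.025 to 0.17, Cdkn3 from -0.12 to 0.22, Btg4 from -0.11 to 0.26, Cnot10 from -0.18 to 0.021 and Bub1 from -0.53 to 0.082. For the replicate numbers, trended and robust variance estimates called 1 member in place of 0, and 198 genes in place of 41. Signal over background was not used here.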
